A study of Mus musculus with 3 samples.

Results

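The 9 genes described here are the immunoglobulin constant genes *Igkc*, *Igha*, *Ighm*, *Ighd*, *Iglc2* and *Iglc3* and the plasma cell genes *Jchain*, *Xbp1* and *Mzb1*, out of 32227 genes in the count table. They were listed by name and chosen by measured values of these libraries, namely their UMIs per cell class and library and in RNA outside nuclei, so their levels are given as a description without a test. The data are single nucleus RNA-seq of L3, L4 and L5 dorsal root ganglia (DRG), which hold sensory neurons and their glia beside the lumbar spinal cord, from wild-type C57BL/6 mice labelled as male, with no treatment or injury. There was 1 library of adult mice (age 3 months) and there were 2 libraries of aged mice (age 21 months). The text on the series gives a lower age for the aged mice. The animal section of the study gives mice of 21 months as female, while its explant methods name both sexes. Age and sex were therefore taken from the sample labels. The number of mice behind each library is not given, and age cannot be told apart from anything else that differed between the adult library and the others.

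B lymphocytes first express a membrane immunoglobulin built from *Ighm* and *Ighd*, the constant parts of the IgM and IgD heavy chains, which are made from 1 primary transcript. After activation, class switching joins the same variable region to another constant gene such as *Igha* (IgA) or an *Ighg* gene (IgG), and a mature cell carries a light chain of either the kappa type (*Igkc*) or the lambda type (*Iglc1*, *Iglc2*, *Iglc3*). Plasma cells secrete antibody in large amounts, and they use *Jchain*, which joins IgM and IgA units, *Xbp1*, a transcription factor of the unfolded protein response that many cell types express, and *Mzb1*, a chaperone of the endoplasmic reticulum found in marginal zone B cells and plasma cells.

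Positions are those of GENCODE M21 on GRCm38 (the mm10 build). *Igkc* lies on chromosome 6 from 70726435 to 70726966 on the plus strand, inside the same-strand noncoding gene *Gm30211*. The heavy chain constant genes lie in 1 cluster on the minus strand of chromosome 12, with *Igha* from 113254830 to 113260236, *Ighd* from 113406604 to 113416324 and *Ighm* from 113418558 to 113422730. *Jchain* is on chromosome 5 from 88519809 to 88527891 on the minus strand and *Xbp1* on chromosome 11 from 5520659 to 5525893 on the plus strand. *Mzb1* overlaps a neighbouring gene on its own strand.

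The lambda constant genes *Iglc2* and *Iglc3* are near copies of each other, which bears on how far their counts can be separated. *Iglc3* and *Iglc1* also lie within the antisense gene *2010309G21Rik*, and no source used here says whether strand was used in counting. The last 240 coding bases of the constant exon, the end nearest to where a 3′ library reads, are shown 5′ to 3′ on the minus strand, from the GENCODE M21 transcripts, at chr16:19198539-19198778 for *Iglc2*, chr16:19065368-19065607 for *Iglc3* and chr16:19061755-19061994 for *Iglc1*. Capitals mark bases that differ from *Iglc2* or are absent in it.
Iglc2: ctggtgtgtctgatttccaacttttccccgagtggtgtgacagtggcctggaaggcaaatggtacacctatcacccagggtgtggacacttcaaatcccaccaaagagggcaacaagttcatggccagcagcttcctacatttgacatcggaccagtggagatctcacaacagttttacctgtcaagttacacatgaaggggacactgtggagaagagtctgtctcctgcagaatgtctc
Iglc3: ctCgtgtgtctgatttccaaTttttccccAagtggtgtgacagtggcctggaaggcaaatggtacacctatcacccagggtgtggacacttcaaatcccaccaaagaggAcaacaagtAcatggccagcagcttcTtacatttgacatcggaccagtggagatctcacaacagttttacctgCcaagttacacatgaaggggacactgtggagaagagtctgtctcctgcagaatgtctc
Iglc1: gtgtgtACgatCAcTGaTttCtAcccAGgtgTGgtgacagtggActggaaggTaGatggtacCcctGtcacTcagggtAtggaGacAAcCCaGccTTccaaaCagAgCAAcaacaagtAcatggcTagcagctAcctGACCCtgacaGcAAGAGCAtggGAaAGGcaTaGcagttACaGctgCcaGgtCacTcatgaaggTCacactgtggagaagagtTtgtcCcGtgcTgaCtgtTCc
The shown stretch of *Iglc3* differs from *Iglc2* at 7 bases. Over the whole coding part *Iglc2* and *Iglc3* were identical at 303 of 314 aligned bases (96.5%), whereas *Iglc2* and *Iglc1* were identical at 230 of 314 (73.2%). Counts of *Iglc2* and *Iglc3* are therefore given as uncertain between the pair. The IgG genes *Ighg2b* and *Ighg2c*, which are used below, were identical at 85.9% of 1004 aligned coding bases.

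Where 3 values follow each other, the first is of the adult library, the second of aged replicate 1 and the last of aged replicate 2. The files held 167664164, 95647106 and 69045987 UMIs. A barcode was taken as a nucleus if it had more than 1000 genes, which left 11518, 5130 and 2611 nuclei with 53.8%, 58.4% and 54.5% of the UMIs. At most 1 kept barcode sequence was shared by any pair of libraries. Barcodes of 10 to 99 UMIs, which are too small to be nuclei, were summed as free RNA. Levels are CPM, the UMIs of a gene per 1000000 UMIs of the same barcodes, with no scaling by gene length, and an interval in brackets is the exact 95% Poisson interval, which covers counting error only.

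*Igkc*, *Igha* and *Jchain* were higher in the free RNA of both aged libraries than in that of the adult library. *Igha* was at 1.62, 69.3 and 107 CPM (20, 790 and 1500 UMIs), so that the aged mean was 54.3 times the adult level. *Igkc* was at 15.8, 109 and 160 CPM for an aged mean of 134.8 ± 36.0 (SD, n = 2) and a ratio of 8.53. *Jchain* was at 1.30, 16.8 and 20.4 CPM, a ratio of 14.3. In all 3 genes the aged libraries lay nearer to each other than to the adult library, which had no replicate. *Igha* (64.6 to 74.3 and 102 to 113 CPM) and *Igkc* (103 to 116 and 154 to 167 CPM) still differed between the aged libraries by more than counting error.

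The other members differed less. *Ighm* was at 29.4, 57.7 and 44.2 CPM of free RNA (ratio 1.74) and *Xbp1* at 34.5, 47.0 and 49.1 (ratio 1.40). *Ighd* (2.51, 2.19 and 1.35), *Iglc2* (1.86, 2.02 and 1.85), *Iglc3* (1.30, 0.965 and 0.713) and *Mzb1* (0.405, 0.965 and 0.784) each rested on few UMIs, and their Poisson intervals overlapped between ages. None of these 6 was over 2-fold higher in both aged libraries, and *Mzb1* was so in aged replicate 1 only (ratio 2.38, on 5 adult UMIs).

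**Figure D1:**
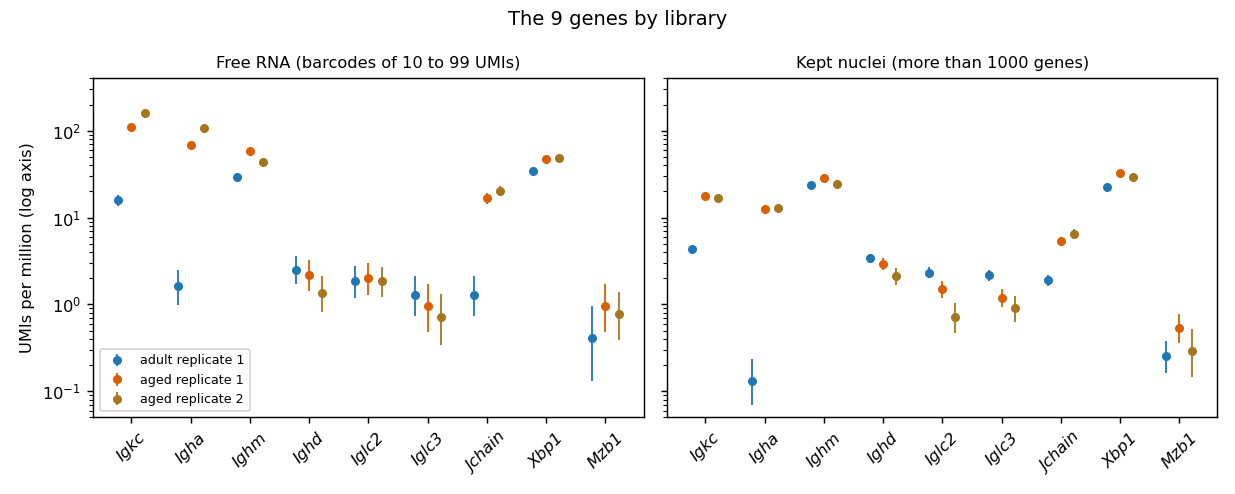
CPM (UMIs per 1000000 UMIs, log axis) of the 9 genes in free RNA (left) and in kept nuclei (right), 1 point per library with exact 95% Poisson intervals as lines. *Igha* stands at 1.62 CPM in adult free RNA and at 69.3 and 107 in the aged libraries, while *Ighd*, *Iglc2* and *Iglc3* have overlapping intervals in free RNA.

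For comparison, 14674 genes had 100 or more UMIs in the free RNA of the 3 libraries together. Of these, 146 (0.995%) were over 2-fold higher in both aged libraries than in the adult library on the log2(CPM + 1) scale, and 376 (2.56%) were over 2-fold lower. The same contrast was part of how the members were chosen, so nothing is read from the 3 of 5 members with enough UMIs that passed that limit upwards (*Igha*, *Jchain* and *Igkc*). By mean difference *Igha* ranked 2nd, *Jchain* 10th and *Igkc* 11th of the 14674 genes. The first place was held by *Opalin*, which was high in aged replicate 1 only.

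The free RNA of the 3 libraries also differed in markers of other blood cells, whose part in the result was not tested. The 7 granulocyte markers (such as *S100a8*) summed to 59.3, 192 and 493 CPM, all 7 with UMIs. The 6 erythroid markers summed to 2193, 3349 and 1672 CPM. The 8 B cell markers went the other way, at 66.2, 41.3 and 25.03 CPM, and the 8 T cell markers were at 62.4, 55.8 and 59.6. The 7 plasma cell markers summed to 33.4, 46.6 and 47.3 CPM.

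Genes that accompany antibody secretion were followed by lists. Of the 13 genes of plasma cell identity, 9 had enough UMIs in free RNA. *Slamf7*, a surface receptor on this list, was over 2-fold higher in both aged libraries (1.30, 5.0 and 4.99 CPM, and 1.11, 5.60 and 5.34 in kept nuclei). The cells it came from were not tested, and the myeloid-like cluster also met 2 plasma cell markers. *Sdc1* (syndecan-1, the plasma cell surface marker CD138) was at 7.86, 15.5 and 18.6 CPM and *Prdm1*, the transcription factor Blimp-1, at 3.49, 6.58 and 5.42, neither past the limit in both. None of the 29 testable genes of the secretory pathway and unfolded protein response passed it in either direction, with *Hspa5*, the chaperone BiP, at 192, 221 and 231 CPM. These counts stand beside 0.995% higher and 2.56% lower of all genes with enough UMIs. Of 5 testable immunoglobulin receptor and transport genes, *Fcgr2b* and *Fcgr3*, which bind IgG, were higher, and of 7 testable B cell identity genes *Fcrla* was lower (8.92, 2.19 and 1.78).

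The heavy chain constant genes were divided differently at each age. Over all barcodes, *Ighm* made up 76.9%, 42.3% and 28.5% of heavy chain UMIs. *Igha* made up 2.34%, 43.3% and 51.3% of the 6419, 9749 and 8811 heavy chain UMIs. *Ighd* was at 11.7%, 3.05% and 1.77%. *Igha* was a minor heavy chain in the adult library, was level with *Ighm* within counting error in aged replicate 1 and exceeded it in aged replicate 2. These shares pool all cell classes and are not those of B or plasma cells alone. Neuron-like nuclei held 67.7%, 65.0% and 71.6% of the *Ighm* UMIs of kept nuclei, and 246, 190 and 156 *Ighg2c* UMIs.

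The IgG genes also had more UMIs per library size in both aged libraries, with shares of heavy chain UMIs that moved in different ways. *Ighg2b* was at 0.234%, 3.02% and 9.48% of heavy chain UMIs (15, 294 and 835 UMIs), and differed between the aged libraries by more than their counting error. *Ighg2c* was at 8.47%, 6.87% and 7.60%, while its level over all barcodes was 3.24, 7.00 and 9.70 CPM. In free RNA *Ighg2b* was at 0.162, 4.47 and 21.7 CPM and *Ighg2c* at 3.41, 10.0 and 13.4, both over 2-fold higher in both aged libraries. *Ighg1* had 1, 80 and 85 UMIs and *Ighg3* 12, 49 and 33 over all barcodes, and these and *Ighe* each stayed under 1% of heavy chain UMIs in every library. Among light chains *Igkc* held 62.9%, 92.5% and 95.6% of the UMIs, and *Iglc2* held 16.2%, 2.24% and 1.25%.

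**Figure D2:**
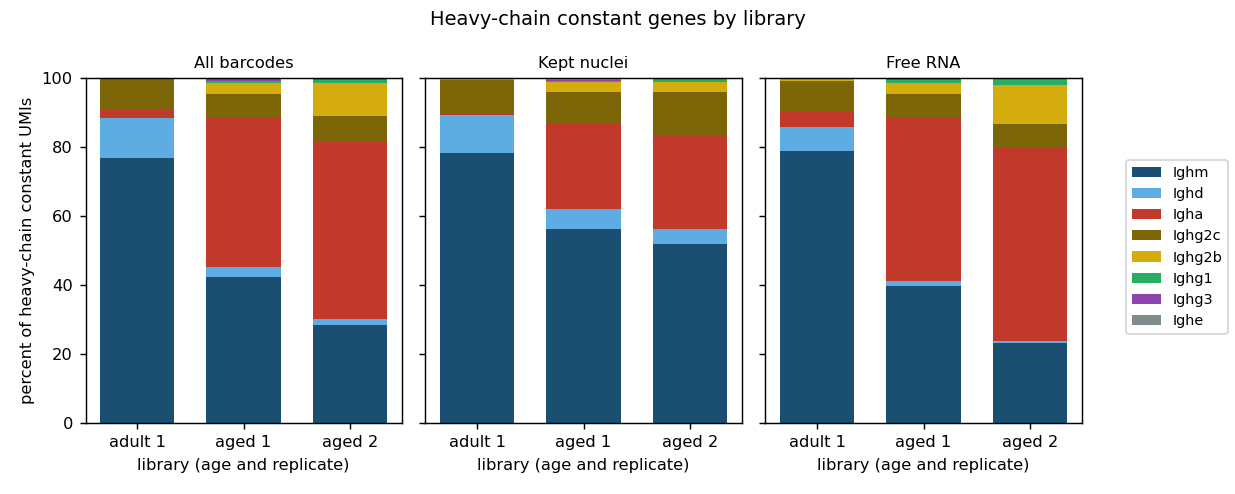
Share of heavy chain constant UMIs taken by each gene, in percent, in all barcodes, kept nuclei and free RNA, 1 bar per library, with all cell classes pooled. The *Igha* share in kept nuclei is 0.438% in the adult library against 24.8% and 27.2% in the aged libraries.

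Much of this RNA lay outside the kept nuclei. Of all *Igkc* UMIs 22.1%, 14.3% and 9.24% were in kept nuclei, and of all *Igha* UMIs 8%, 16.7% and 10.6%. The median over genes with 100 or more UMIs was 52.3%, 60.4% and 56.5%. *Jchain* was at 55.0% in the adult library but at 25.8% and 24.2% in the aged ones. *Ighm* (43.5%, 38.9% and 36.6%) and *Xbp1* (41.1%, 48.0% and 40.1%) lay nearer to the median gene. *Igkc* and *Igha* were thus among the genes least found in kept nuclei, below all but 2.17% of genes for *Igkc* and all but 0.176% for *Igha* in the adult library.

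Within kept nuclei, a B-like class was named from 8 markers that include no member (such as *Cd79a*, *Cd79b*, *Ms4a1* and *Pax5*), and the clustering was run without immunoglobulin genes. It held 106, 57 and 23 nuclei, with medians of 1874, 2539 and 2565 UMIs per nucleus. The marker sum was 6111, 7598 and 7499 CPM there, against 66.2, 41.3 and 25.03 in free RNA, and all 8 markers had UMIs in each library. No class was named plasma-like (the cluster with most plasma cell markers is described further on).

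*Ighm* was at 1201 (1068 to 1346), 1372 (1208 to 1553) and 1047 (815 to 1326) CPM in B-like nuclei. It had a UMI in 83.0%, 94.7% and 91.3% of these nuclei, and in 67.0%, 77.2% and 56.5% once each nucleus was thinned to 1000 UMIs. *Ighd* was at 423 (346 to 513), 631 (521 to 758) and 774 (576 to 1018) CPM. Both genes were far above free RNA, and the adult *Ighm* value lay between those of the aged libraries, while the adult *Ighd* value was the lowest.

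The light chains were also high in B-like nuclei. *Igkc* was at 615 (521 to 721), 461 (368 to 571) and 349 (221 to 524) CPM. *Iglc2* was at 468, 296 and 228 CPM and *Iglc3* at 330, 264 and 349, with reads of this pair perhaps split between them. A UMI of *Igkc* was found in 56.6%, 59.6% and 56.5% of the nuclei, against 1.27%, 8.45% and 8.80% of neuron-like nuclei. The latter had medians of 7318, 5593 and 7391 UMIs. After thinning to 1000 UMIs these shares were 34.9%, 40.4% and 26.1% in B-like nuclei and 0.0904%, 1.98% and 1.60% in neuron-like nuclei.

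UMIs of both light chain types were found in the same B-like nucleus in 48 of 106, 28 of 57 and 10 of 23 cases. Kappa alone was found in 12, 6 and 3 nuclei, lambda alone in 32, 14 and 5, and neither in 14, 9 and 5. *Ighm* and *Ighd* were found together in 44, 39 and 19 nuclei. These counts are of barcodes, each of which may hold more than 1 cell or take up free RNA, and that was not tested.

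The switched isotypes and *Jchain* had few UMIs in B-like nuclei. *Igha* had 3, 2 and 5 UMIs there, the last in 4 of 23 nuclei at 75.9 (24.6 to 177) CPM, and *Jchain* had 1, 2 and 1. *Ighg3* had 2, 7 and 0 UMIs, and the 7 were 53.8% of its UMIs in the kept nuclei of aged replicate 1. *Ighg2b* had 2 UMIs, both in aged replicate 1, and *Ighg1* and *Ighg2c* had none in any library, which allows at most 3 UMIs each. *Mzb1* had 2, 10 and 4 UMIs, or 8.14 (0.986 to 29.4), 54.9 (26.3 to 101) and 60.7 (16.5 to 155) CPM, with overlapping intervals. *Xbp1* had 12, 3 and 2 UMIs, within counting error of the free RNA level. The 7 plasma cell markers summed to 183, 192 and 167 CPM in these nuclei, above free RNA. Among them *Slamf7* had 19, 16 and 5 UMIs and *Eaf2*, an elongation factor partner, 14, 13 and 4, while *Tnfrsf17* and *Derl3* had none in any library and *Sdc1* had 4, 0 and 1.

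The 6 immunoglobulin genes together were at 3049 (2835 to 3276), 3036 (2788 to 3300) and 2823 (2432 to 3260) CPM in B-like nuclei. The aged mean was 0.961 times the adult level. It was 1.94 times with a second clustering that was run without integration, and 0.757 times in nuclei of more than 2000 genes. The B-like class of the second clustering held 203, 64 and 30 nuclei and met 5 markers of satellite glia (SGC) beside 8 of B cells. The part of this in the ratio was not tested. These levels and ratios are a description, and with 1 adult library no difference or likeness with age is read from them.

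B-like nuclei held only part of the immunoglobulin UMIs of kept nuclei, 22.9%, 15.3% and 8.55%. Neuron-like nuclei held 50.8%, 45.5% and 44.6%, less than their 71.6%, 71.4% and 76.1% of all UMIs of kept nuclei. After thinning to 1000 UMIs per nucleus, B-like nuclei held 51.1%, 28.6% and 16.1%. The order of the libraries was the same in both. A mixed cluster of 67, 6 and 3 nuclei met 5 B cell markers beside 5 SGC markers. Another, of 18, 0 and 1 nuclei, met 6 beside 6 of myelinating Schwann cells. Neither entered the B-like class, so its counts and shares leave out such nuclei, most of them of the adult library. Mixed clusters held 30.6%, 8.96% and 5.88% of the *Iglc3* UMIs of kept nuclei.

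The B-like class came from 3 sub-clusters in unlike shares. The first held 65, 4 and 6 nuclei, the second 38, 22 and 11, and the third 3, 31 and 6. *Ighm* was similar across them over all libraries, at 1253, 1155 and 1349 CPM, while *Ighd* was highest in the second (375, 801 and 414). In aged replicate 2 alone *Ighd* was higher in the third (912 CPM) than in the second (795 CPM). *Mzb1* had 0, 4 and 12 UMIs, and 9 of the 12 in the third came from aged replicate 1. Differences with age in the class therefore cannot be told apart from its make-up.

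**Figure D3:**
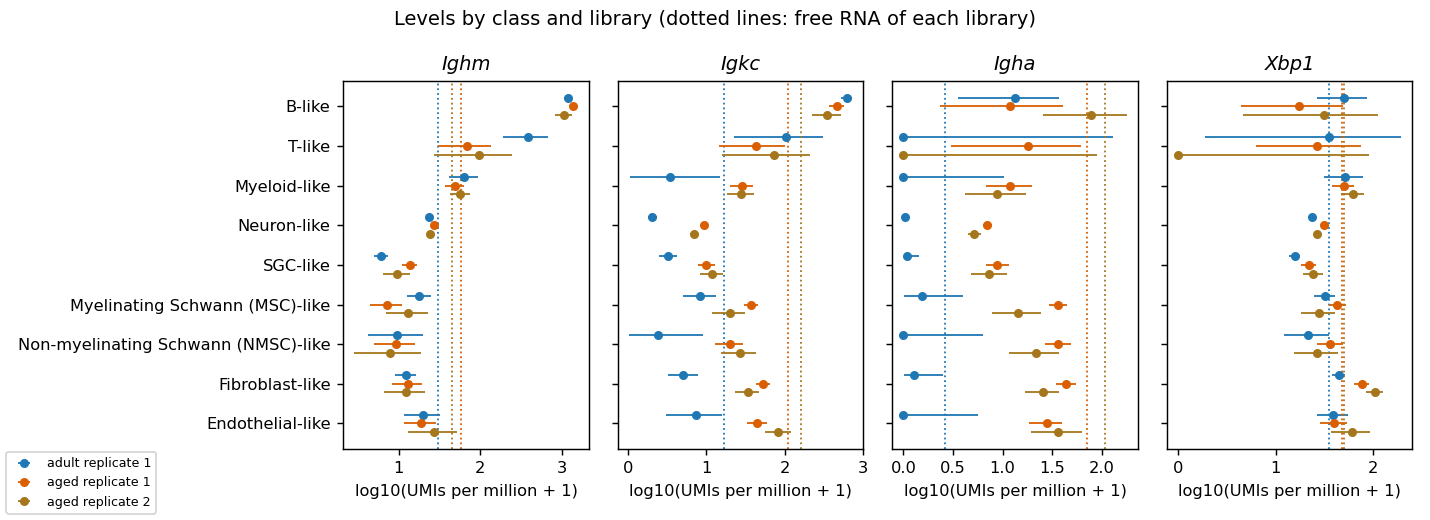
Levels of *Ighm*, *Igkc*, *Igha* and *Xbp1* per class as log10(CPM + 1), 1 point per library with exact 95% Poisson intervals and a dotted line at each library's free RNA level. *Ighm* and *Igkc* stand far to the right of the dotted lines in B-like nuclei, while *Igha* lies left of the aged free RNA lines in the neuron-like, glial, myeloid-like, fibroblast-like and endothelial-like classes.

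Age was tested in the summed counts of B-like nuclei by the quasi-likelihood test of edgeR, adjusted after Benjamini and Hochberg over 5891 genes. The test was meant for genes outside the members, but 6 members had enough UMIs and are among the 5891. Their own results are not reported, since the members were chosen on these values, and the counts of genes called were taken over all 5891. There is 1 residual degree of freedom, from the aged pair, the spread was pooled over genes, and the lone adult library, which has no spread of its own, is assumed to vary like them. The calls therefore set these 3 libraries against each other and do not carry to adult and aged mice. At an adjusted p under 0.05, 36 genes (0.611%) were higher and 59 (1.00%) lower in the aged libraries, 95 in all (1.61%). DESeq2's Wald test on the same sums called 0 genes, with 76 at an unadjusted p under 0.05 against 464 in edgeR. On simulated counts with the same depth, the edgeR test found 20% of 4-fold and 80.5% of 16-fold changes.

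No gene of the lists for B cell identity (14 tested), plasma cell identity (7), secretory pathway and unfolded protein response (19) or immunoglobulin receptors (1) passed the test, beside 1.61% of all genes tested. Their median log2 differences (aged minus adult) were 0.01, 0.37, -0.41 and 0.83, against 0.03 over all genes tested. *Cr2*, complement receptor 2 of mature B cells, had 38, 9 and 2 UMIs and a log2 difference of -1.86 ± 0.68 (SE; edgeR adjusted p = 0.223). *Txndc5*, a disulfide isomerase abundant in plasma cells, had 16, 37 and 12 UMIs and a log2 difference of 1.52 ± 0.65 (edgeR adjusted p = 0.406). None of the 6 genes of B cell survival and recruitment signals or the 8 of B precursors had enough UMIs for the test.

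The genes that passed included markers of other cells. *Csmd1* (472, 68 and 7 UMIs), *Rbfox1*, a neuronal splicing factor (262, 25 and 6), and *Meg3*, a noncoding RNA high in neurons (324, 60 and 5), were lower in the aged libraries. The 6 markers of myelinating Schwann cells summed to 1475, 484 and 395 CPM and the 7 neuron markers to 1996, 1637 and 653 in these nuclei. The 6 SGC markers were at 301, 286 and 75.9 CPM, the 8 T cell markers at 163, 121 and 805, and the 5 cycling markers at 428, 54.9 and 75.9, with 1 of the latter among the genes called lower. The part of these cells in the calls was not tested. *Il5ra*, a cytokine receptor chain (8, 84 and 20 UMIs), and *Ptpn22*, a phosphatase of lymphocyte signalling (35, 199 and 38 UMIs), were higher, with log2 differences of 3.52 ± 0.66 (edgeR adjusted p = 3.37e-05) and 2.54 ± 0.49 (edgeR adjusted p = 0.000105). *Il5ra* was among the 10 leading genes of the third B-like sub-cluster, which held 3, 31 and 6 nuclei, so its call cannot be told apart from the make-up of the class.

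Outside the B-like class, *Igkc* and *Igha* lay below the free RNA level in each named class of the aged libraries. In neuron-like nuclei *Igha* was at 0.0464, 6.01 and 4.19 CPM (3, 240 and 120 UMIs) and *Igkc* at 1.05, 8.35 and 6.01. In SGC-like nuclei, the satellite glia that wrap each neuron, *Igha* was at 0.0766, 7.86 and 6.36 CPM (1, 46 and 18 UMIs) and *Igkc* at 2.22, 9.06 and 10.96. The shares of nuclei with a UMI in these classes are therefore not read as expression by the class, and where these UMIs came from was not tested. Single nuclei with many such UMIs are described further on.

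The ratio of these genes was close to that of free RNA in several classes and far from it in B-like nuclei. Of the summed UMIs of *Igha* and *Igkc*, *Igha* made up 38.8% (36.7% to 40.9%, exact binomial) and 40.02% (38.4% to 41.6%) in the free RNA of the aged libraries. The share was 41.9% (37.8% to 46.0%) and 41.1% (35.4% to 47.0%) in neuron-like nuclei, and 46.5% (36.4% to 56.8%) and 36.7% (23.4% to 51.7%) in SGC-like nuclei. In B-like nuclei it was 2.33% (0.283% to 8.15%) and 17.9% (6.06% to 36.9%), with intervals below those of free RNA. These intervals treat UMIs as independent, although single nuclei can hold many. In aged replicate 1 the share was 65.2% in nonmyelinating and 49.4% in myelinating Schwann-like nuclei, but 1 nucleus held 19 of 43 *Igha* UMIs of the former and 1 held 59 of 86 of the latter. Without that nucleus, an alternative added after seeing the data, the shares were 55.8% (39.9% to 70.9%) and 36.5% (25.6% to 48.5%). In neuron-like nuclei they were 40.5% and 42.1% without it. In mixed clusters they were 36.8% and 50.6%, and in myeloid-like nuclei of aged replicate 1 the share was 50%. In adult free RNA the share was 9.30% (5.78% to 14.0%) of 215 UMIs. In the adult library it was 4.23% (0.880% to 11.9%) of 71 UMIs in neuron-like nuclei. It was 3.33% (0.0844% to 17.2%) of 30 UMIs in SGC-like nuclei.

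Some nuclei carried many immunoglobulin UMIs. Nuclei with 10 or more UMIs of immunoglobulin constant genes numbered 46, 66 and 34, and held 16.8%, 33.0% and 36.2% of such UMIs in kept nuclei. In the adult library all 46 had more UMIs of *Ighm* and *Ighd* than of *Igha*, and 24 were B-like and 8 neuron-like. In aged replicate 1, 25 were B-like and 21 neuron-like, and in aged replicate 2 these numbers were 7 and 15. *Jchain* was present in 2, 22 and 14 of them. The limit of 10 UMIs was not scaled to depth, and neuron-like nuclei had a higher median of UMIs than B-like ones in each library.

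Nuclei with more *Igha* than *Ighm* and *Ighd* together numbered 0, 19 and 11, and none of them was B-like. In aged replicate 1 they comprised 5 neuron-like nuclei, 5 of mixed clusters and 9 spread over 7 other classes or clusters. The highest, in the myelinating Schwann-like class, held 59 *Igha*, 41 *Igkc* and 6 *Jchain* UMIs and no *Ighm*. In aged replicate 2 a nucleus of a mixed cluster held 91 *Igha*, 98 *Igkc*, 45 *Ighg2c* and 23 *Jchain* UMIs among 28507, so that more than 1 isotype shared the barcode. Another, of 2660 UMIs, held 56 *Igha* and 42 *Igkc* UMIs, and immunoglobulin took 3.797% of its RNA, whereas the largest such share in the adult library was 1.03%.

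**Figure D4:**
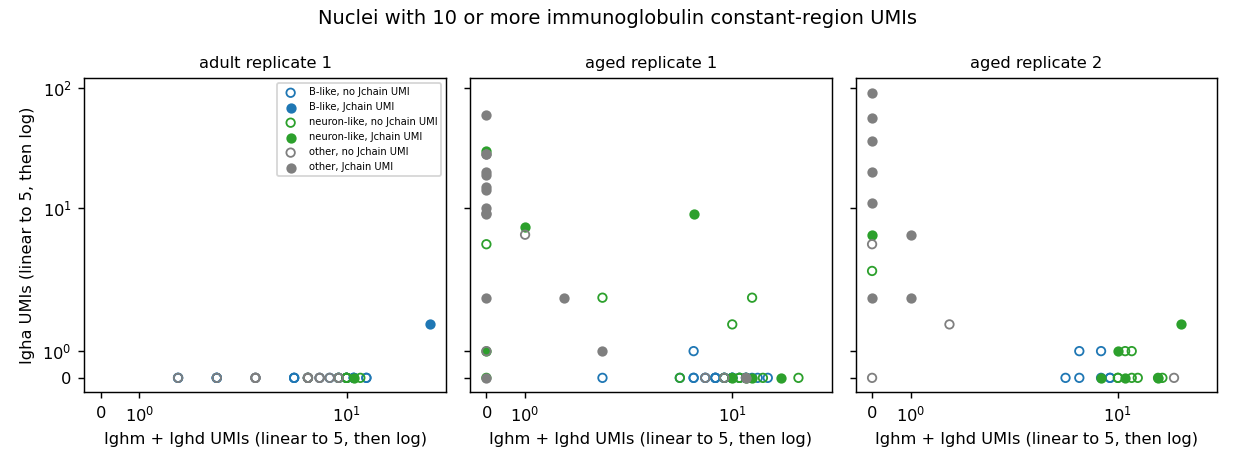
UMIs of *Igha* against UMIs of *Ighm* and *Ighd* in each nucleus with 10 or more constant region UMIs, 1 panel per library, both axes linear to 5 and logarithmic beyond. Filled points have a *Jchain* UMI. Points high on the *Igha* axis lie at or near 0 on the other axis and occur in the aged panels, with 0, 19 and 11 nuclei where *Igha* exceeds *Ighm* and *Ighd*.

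The division was also counted over all barcodes, above or below the limit of 1000 genes. Over those with 5 or more heavy chain UMIs (141, 179 and 99), *Ighm* with *Ighd* led in 140, 131 and 70 and *Igha* in 1, 32 and 17. *Ighg2c* led in 0, 11 and 10. In the aged libraries these had medians of 64816 and 57762.5 UMIs, against 4201 and 5177 for those led by *Igha*, and *Jchain* in 3 and 3. Neuron-like nuclei held 246, 190 and 156 *Ighg2c* UMIs, and whether the barcodes led by *Ighg2c* were neurons was not tested. Of those led by *Ighm* with *Ighd*, 124, 115 and 65 had more than 1000 genes. Of those led by *Igha*, 0, 22 and 13 did, and *Jchain* was present in 0, 19 and 12. Of barcodes with 5 or more light chain UMIs (74, 66 and 35), at least 90% of the UMIs were kappa in 3, 33 and 27 and lambda in 11, 3 and 0. The remaining 60, 30 and 8 barcodes held both types.

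One small cluster was led by *Cd300c* and *Siglech*, the latter a surface lectin of plasmacytoid dendritic cells, and it held 9, 8 and 16 nuclei. By the naming rule 6 of the 7 plasma cell markers counted there, and *Derl3*, *Igha* and *Jchain* were among its 10 leading genes, but its first leading genes are not those of plasma cells and it was left unnamed. *Igha* had 0, 38 and 40 UMIs there, *Igkc* 1, 31 and 50, *Ighm* 26, 17 and 49 and *Jchain* 0, 9 and 21. In the aged libraries 1 nucleus each held 28 of the 38 and 36 of the 40 *Igha* UMIs. These had UMIs of 5 and 6 of the 7 plasma cell markers and of 0 B cell markers. Its other nuclei with 10 or more constant region UMIs had 1 and 1 plasma cell markers in aged replicate 1 and 4, 6 and 4 in aged replicate 2. Whether some nuclei of the cluster were plasma cells was not tested. *Siglech* was detected in 5, 2 and 8 of its nuclei, which held 19, 4 and 28 *Ighm* UMIs but 1, 1 and 1 *Igkc* and 0, 0 and 1 *Igha* UMIs. The other nuclei held 30 and 49 *Igkc* and 38 and 39 *Igha* UMIs in the aged libraries. *Derl3*, an endoplasmic reticulum gene high in plasma cells, was detected in 0, 1 and 3 nuclei of the cluster. Nuclei with 3 or more UMIs of *Igha*, *Jchain*, *Ighg2b* and *Ighg2c* in sum numbered 0, 2 and 3, and none of them had a *Siglech* UMI.

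*Ighm* in neurons did not follow *Igkc*. It was at 22.5, 26.1 and 22.96 CPM in neuron-like nuclei (1452, 1041 and 657 UMIs), and these nuclei held 67.7%, 65.0% and 71.6% of the *Ighm* UMIs of kept nuclei, slightly less than their share of all UMIs (71.6%, 71.4% and 76.1%). A UMI was found in 15.98%, 18.71% and 19.3% of neuron-like nuclei, and in 2.49%, 2.82% and 2.72% after thinning to 1000 UMIs. SGC-like nuclei had *Ighm* at 5.13, 12.6 and 8.48 CPM, with thinned shares of 0.392%, 1.69% and 0.337%. The mean level in neurons was below free RNA (29.4, 57.7 and 44.2), but it was unevenly spread.

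Over the 13 neuron-like clusters *Ighm* ranged from 2.45 to 44.1, from 0 to 53.2 and from 1.91 to 58.3 CPM. The clusters fell into a high and a low set, divided after the values were seen. In 6 clusters, each named here by a leading gene (*Htr3a*, *Nefh*, *Kcnh5*, *Chrna7*, *Sstr2* and *Trpm8*), it was between 34.0 and 44.1, 31.9 and 53.2, and 33.6 and 58.3 CPM. In the other 7 (*Mrgprd*, *Nxph1*, *Grik1*, *Th*, *Mrgpra3*, *Lpar3* and *Tafa4*) it was between 2.45 and 10.1, 0 and 16.6, and 1.91 and 9.04. The high set held 87.9%, 84.1% and 90.6% of the *Ighm* UMIs of neurons with 50.1%, 54.0% and 49.2% of all their UMIs.

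The order of the clusters was alike in each library. Spearman's rho of the *Ighm* levels over the 13 clusters was 0.80, 0.91 and 0.83 for the 3 pairs of libraries, given as a description, since the clusters share their library. Clusters of like depth differed. The *Htr3a* cluster had medians of 3335, 3478 and 3836 UMIs per nucleus with *Ighm* at 44.1, 51.5 and 58.3 CPM, and the *Grik1* cluster 3313, 3859 and 3456 UMIs with *Ighm* at 6.69, 12.9 and 9.04. The *Lpar3* cluster, the deepest, with medians of 32821, 52349 and 56185, had *Ighm* at 3.54, 7.16 and 4.28. With the second clustering the lowest rho was 0.81 over 18 clusters, but the gap between a high and a low set was not kept in each library. A cluster led by *Cartpt*, *Tac1* and *Sstr2* was at 62.1, 22.01 and 18.9 CPM (33, 7 and 3 UMIs), and the *Th* and *Mrgpra3* clusters were at 21.7 and 20.7 in aged replicate 1. The *Nefh* label did not hold for the high set there, since of the 2 clusters highest in *Nefh* 1 had *Ighm* at 36.6, 44.5 and 42.0 CPM and the other, led by *Gjd2*, at 8.89, 12.2 and 10.1 (3, 11 and 3 UMIs).

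The IgG2c gene *Ighg2c*, which is not a member, had another distribution over neurons. It was highest in the clusters led by *Th* (39.6, 59.2 and 78.3 CPM) and *Tafa4* (18.0, 30.1 and 29.0), chosen after the values were seen. *Th* is tyrosine hydroxylase, a marker of C fibres that sense light touch. The other 11 clusters were between 0.291 and 6.07, 0.505 and 12.97, and 0.159 and 14.8 CPM. These 2 clusters held 70.7%, 53.2% and 69.9% of the *Ighg2c* UMIs of neurons (246, 190 and 156 UMIs) with 12.99%, 7.26% and 11.7% of their UMIs. They were among the lowest for *Ighm*, with 24, 4 and 7 UMIs in all. The lowest rho between libraries was 0.57, and *Ighg2c* had no UMI in B-like nuclei.

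**Figure D5:**
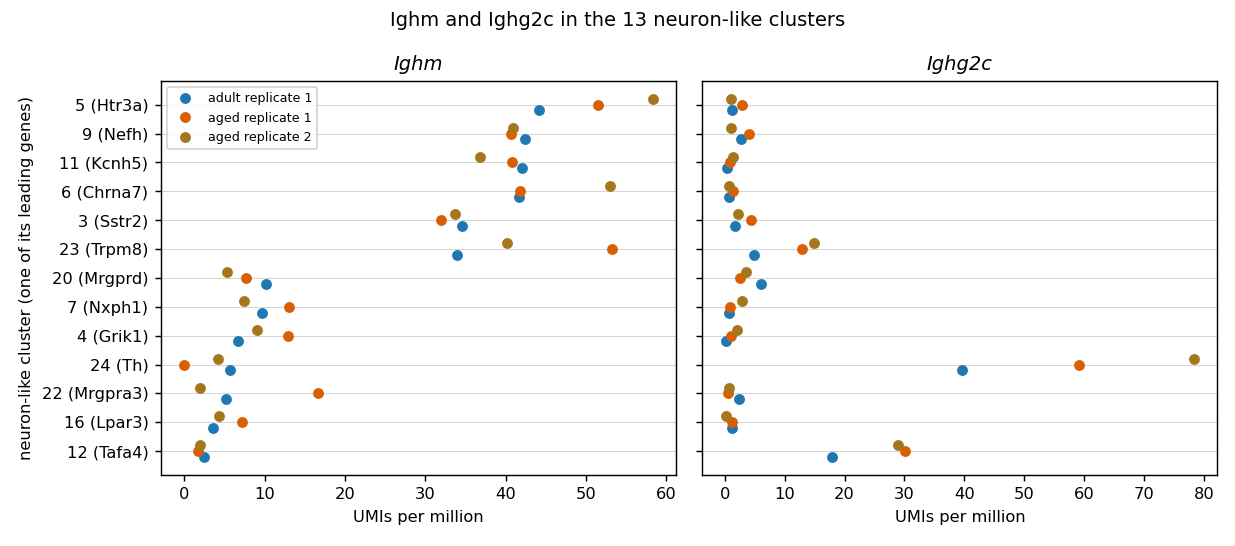
CPM of *Ighm* (left) and *Ighg2c* (right) in the 13 neuron-like clusters, each labelled with its number and a leading gene, 1 point per library. The 6 clusters at the top lie above 31 CPM for *Ighm* and the other 7 below 17, while *Ighg2c* reaches 39.6, 59.2 and 78.3 CPM in the *Th* cluster.

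Neuron-like nuclei held 151 of 171 *Jchain* UMIs of kept nuclei in the adult library (88.3%), above their 71.6% of all UMIs. In the aged libraries they held 192 of 298 (64.4%) and 125 of 242 (51.7%), below their 71.4% and 76.1%. It was at 2.34, 4.81 and 4.37 CPM of neuron-like nuclei, above the adult free RNA (1.30) and below that of the aged libraries (16.8 and 20.4). Across neuron-like clusters its order was not kept between libraries, with rho between -0.01 and 0.40. In SGC-like nuclei it was at 0.536, 2.39 and 2.83 CPM (7, 14 and 8 UMIs).

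*Xbp1* was spread over all classes. It was at 43.3, 75.1 and 101.9 CPM in fibroblast-like nuclei, where a UMI was found in 10.6%, 18.73% and 19.6% (4.71%, 5.39% and 8.02% after thinning). It was at 50.02, 48.6 and 60.3 in myeloid-like, 22.3, 30.2 and 25.5 in neuron-like and 14.6, 20.8 and 23.3 in SGC-like nuclei. Of these 4 classes, the fibroblast-like and myeloid-like ones were above the free RNA of their library in all 3, the latter within its counting error. Across neuron-like clusters *Xbp1* kept its order between libraries (rho of 0.81 to 0.87), although its extremes were not the same clusters in each. It was lowest in the *Nxph1* cluster in the adult library and aged replicate 1 (8.79 and 14.4 CPM) and in the *Kcnh5* cluster in aged replicate 2 (8.41). It was highest in the *Mrgprd* cluster in the adult library (60.7) and in the *Th* cluster in the aged libraries (101.5 and 98.9).

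The variable regions that give an antibody its specificity were rarely counted. Of 346 rows for variable genes, 63, 74 and 75 had a UMI, with 224, 140 and 150 UMIs in all. *Igkv20-101-2* led in each library with 72, 17 and 14 UMIs. It was followed by *Igkv1-110* (19) and *Igkv6-29* (15) in the adult library, *Igkv5-43* (8) and *Iglv1* (6) in aged replicate 1, and *Igkv12-44* (9) and *Igkv6-29* (7) in aged replicate 2. These counts are too low to describe clones.

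The genes most like a member in pattern were ranked by Pearson's r over 24 sums, of 8 classes in 3 libraries, which share libraries and depth. For *Igkc* these were *C1galt1* (0.91), *Srsf10* (0.88), *Ube2h* (0.87), *Iws1* (0.87) and *Gpbp1* (0.87). *Jchain* was matched less closely, with *Otud4* (0.79) first. For *Xbp1* they were *Colec12* (0.85), *Scfd1* (0.83) and *Ang* (0.82), among others.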

How the data were processed

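Single nucleus RNA-seq was performed by the authors with the Illumina Single Cell 3' RNA Prep (PIP-seq, which captures nuclei with barcoded particles). The authors deposited raw UMI counts for every gene and barcode, with no barcode filter seen, which they made with Pipseeker. The processing notes of the submitters name the mm10 build. The 9 members and the gene lists were chosen with earlier results of these data known, and the rule that names clusters (3 or more markers, no second list near the first) and the resolution of 1.5 for lymphocytes were set after clusters were seen.

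Barcodes with more than 1000 genes (19259) were kept. Nuclei were clustered in Seurat 5.3.0 (R 4.3.3) with SCTransform, RPCA integration by age, 30 components and a resolution of 0.8, after removing immunoglobulin genes and members. Doublets were not removed by a caller. Clusters that met the markers of several lists were set aside as mixed (1178 nuclei), and others stayed unnamed (207). Counts were summed per class and library. Shares were repeated after thinning each nucleus to 1000 UMIs (none was shallower). Intervals are exact Poisson or Clopper-Pearson at 95%, and a count of 0 allows 3 UMIs as a 95% limit on the upper side only. B-like sums were tested with edgeR 4.0.16 (quasi-likelihood, TMM, filterByExpr), checked on simulated counts, and with DESeq2 1.42.0 as an alternative. Other alternatives were scanpy 1.11.5 clustering at resolution 2, more than 2000 genes per nucleus, other bounds for free RNA and leaving out an aged library. Named were all members, the other constant genes, 3 variable genes per library, the list genes the text describes and the genes most changed in B-like sums. A few genes that this rule or a marker list holds are not reported here by name. Replicates are libraries. The p-values rest on the spread of the aged pair, pooled over genes, and the adult library adds no spread. The depth per library was 69045987 to 167664164 UMIs.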

Additional observations from a re-analysis of the deposited data

Results flagged for a closer look

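Barcodes of 100 or more UMIs but no more than 1000 genes entered neither the kept nuclei nor the free RNA, and the aged libraries were above the adult library there as well. *Igha* was at 99.5 CPM in aged replicate 1 and 151 in aged replicate 2, against 1.87 in the adult library. *Igkc* was at 170 and 240 CPM against 19.1, and *Jchain* at 24.3 and 28.2 against 1.97. These barcodes held 75.3% of the *Igha* UMIs of the adult library and 63.7% and 54.6% of those of the aged libraries. Of the UMIs of all genes they held 60549040 of 167664164, 27036230 of 95647106 and 16317909 of 69045987, also a smaller part in the aged libraries. No shift of *Igha* with age is therefore read from its shares. They can be small nuclei, broken cells or free RNA, which was not tested.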

How the results depend on the processing

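In free RNA the immunoglobulin sum (aged mean over adult) was 5.31, with 4.95 and 5.35 for barcodes of 10 to 49 and 50 to 99 UMIs and 4.61 to 6.01 with an aged library left out. In B-like nuclei the ratio of 0.961 became 1.94 with scanpy clustering, 0.757 with more than 2000 genes and 0.894 after thinning, and 0.926 to 0.996 with an aged library left out. The share of immunoglobulin UMIs of kept nuclei that lay in B-like nuclei was, in the adult library, 33.2% with scanpy clustering, 5.86% with more than 2000 genes and 51.1% after thinning, in aged replicate 1 18.2%, 4.88% and 28.6%, and in aged replicate 2 14.7%, 1.98% and 16.1%. The 95 genes called with age became 100 with DESeq2 size factors, 80 without the filter, 150 with scanpy clustering, 6 with more than 2000 genes (1944 tested, with no gene higher in the aged libraries, so without *Il5ra* and *Ptpn22*) and 0 with DESeq2 (76 at an unadjusted p under 0.05). Apart from the fewer genes tested, the cause was not tested. Over neuron-like clusters the lowest rho became 0.81 for *Ighm* and 0.50 for *Ighg2c* with scanpy clustering, an alternative added after seeing the data. Without the nucleus with most *Igha* UMIs, also added later, the *Igha* share of *Igha* and *Igkc* UMIs in aged replicate 1 went from 49.4% to 36.5% in myelinating Schwann-like and from 28.3% to 50% in myeloid-like nuclei, and in aged replicate 2 from 44.4% to 9.09% in the cluster led by *Cd300c*. No paired analysis was possible because the labels link no adult library to an aged one. The single adult library limits every comparison with age, and B-like nuclei numbered as few as 23 in a library.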
